A study of Homo sapiens with 6 samples.

Results

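The genes described here encode 10 enzymes that remove superoxide and hydrogen peroxide: the peroxiredoxins PRDX1 to PRDX6, the superoxide dismutases SOD1 and SOD2, catalase (CAT) and glutathione peroxidase 1 (GPX1). They were taken by gene name from a table of 62703 genes, and each name matched a single row. All 10 passed the filter on low values described below. Transcript levels come from RNA sequencing of 786-O, an established human clear cell renal cell carcinoma line, in 3 control libraries (labelled wild type) and 3 libraries of cells overexpressing OGT, the enzyme that adds O-linked N-acetylglucosamine to nuclear and cytosolic proteins. Every library is 786-O, a line known to lack functional VHL protein, grown in medium with serum and antibiotics. The sources used here do not give how OGT was introduced or whether the cells were a pool or a clone. The series title links OGT to HIF-2α and to ferroptosis, a death by iron-dependent lipid peroxidation, and the comparison shows how the transcripts of these peroxide-removing enzymes stood in the cells with more OGT.

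Superoxide dismutases convert superoxide to hydrogen peroxide, SOD1 with copper and zinc in the cytosol and SOD2 with manganese in the mitochondrial matrix. Catalase in peroxisomes breaks hydrogen peroxide down without drawing on glutathione or thioredoxin. GPX1 reduces hydrogen peroxide with glutathione through a selenocysteine, and peroxiredoxins reduce it through a reactive cysteine that is restored mostly by thioredoxin. PRDX1, PRDX2 and PRDX6 are mainly cytosolic, PRDX3 is mitochondrial, PRDX5 is found in mitochondria, peroxisomes and cytosol, and PRDX4 is in the endoplasmic reticulum and secreted.

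The typical 2-Cys peroxiredoxins PRDX1 to PRDX4 are close relatives, and because PRDX1 and PRDX3 stood higher while PRDX2 and PRDX4 stood lower in the overexpressing cells, their sequences are shown for how far reads of these genes can be told apart. Each run is 60 bases of the GENCODE release 29 coding sequence, 5′ to 3′, and the capitals mark the codons around the peroxidatic cysteine, the residue that reacts with peroxide.
PRDX1: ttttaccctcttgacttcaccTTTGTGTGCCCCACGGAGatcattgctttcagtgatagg
PRDX2: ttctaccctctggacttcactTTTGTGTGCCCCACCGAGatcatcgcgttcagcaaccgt
PRDX3: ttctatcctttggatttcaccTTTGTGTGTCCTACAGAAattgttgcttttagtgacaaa
PRDX4: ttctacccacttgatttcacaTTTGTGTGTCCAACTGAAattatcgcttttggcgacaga
Over these 60 bases PRDX2 differed from PRDX1 at 11 positions, and PRDX3 and PRDX4 each differed from it at 15. The whole coding sequences of PRDX1 and PRDX2 were 72.6% identical over aligned bases, and the longest identical stretch between their transcripts was 14 bases. Between any pair of these 4 transcripts it was 17 bases at most, found for PRDX1 and PRDX4. GPX1 differs in this respect: its transcript and that of the pseudogene GPX1P1 shared an identical stretch of 148 bases and were 98.2% identical over aligned bases, so values of GPX1 depend on how the authors' counting divided shared reads.

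Promoters are shown for the pair with the largest rises and for GPX1, which fell. RefSeq promoter entries of GRCh38.p14 matched 7 of the 10 genes, with 11 windows in all, and there was no entry for PRDX1, PRDX6 and SOD1. The 250 bases before each start were searched on both strands for the antioxidant response element core TGACNNNGC, the HIF cores ACGTG and GCGTG, the SP1 box GGGCGG and the forkhead site GTAAACA. Capitals in the runs mark matches to the HIF cores, also on the opposite strand, and the letters are given 5′ to 3′ on the gene's strand.
CAT (chr11:34438684-34438933, plus strand): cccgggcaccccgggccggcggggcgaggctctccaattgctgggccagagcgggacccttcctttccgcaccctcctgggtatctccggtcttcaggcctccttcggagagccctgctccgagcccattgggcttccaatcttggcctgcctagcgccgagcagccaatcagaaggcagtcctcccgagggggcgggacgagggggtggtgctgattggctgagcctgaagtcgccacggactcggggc
PRDX3 (chr10:119178813-119179062, minus strand): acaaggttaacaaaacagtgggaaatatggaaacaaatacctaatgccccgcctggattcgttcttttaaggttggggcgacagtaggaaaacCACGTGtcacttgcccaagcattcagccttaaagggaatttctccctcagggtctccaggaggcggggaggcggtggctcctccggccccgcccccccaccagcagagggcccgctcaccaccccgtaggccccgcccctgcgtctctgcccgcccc
GPX1 (chr3:49358354-49358603, minus strand): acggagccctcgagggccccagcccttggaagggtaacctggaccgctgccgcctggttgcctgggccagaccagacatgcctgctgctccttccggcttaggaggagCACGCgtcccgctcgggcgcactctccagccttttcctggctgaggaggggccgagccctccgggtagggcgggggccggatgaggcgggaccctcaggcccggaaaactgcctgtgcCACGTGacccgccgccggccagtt
The PRDX3 window holds ACGTG on both strands as one palindrome (positions -157 and -156 from the start), and so does the GPX1 window (-24 and -23), which also holds GCGTG on the opposite strand at -142. No match to the HIF cores was found in the CAT window. Across the 7 genes, ACGTG was present in 4 of 11 windows, against 18.5% of 35116 RefSeq windows of the same length. GCGTG was in 7 of 11, against 32.2%. The windows are not separate genes, since SOD2 has 4 of them and PRDX5 has 2. Those of PRDX5 overlap and share a GCGTG site. Counted by gene, ACGTG and GCGTG were each present in 4 of the 7. GGGCGG was present in 11 of 11 windows, against 42.6%. The letters of TGACNNNGC and of GTAAACA were in 0 of these windows, against 10.9% and 3.0% of all windows. A match describes the letters only. Of the genes that rose and had an entry, PRDX3 held HIF cores and CAT did not, and PRDX1 could not be searched. Genes that fell held them too, and the PRDX4 window has the same ACGTG palindrome (-83 and -82).

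Values are TPM, which divides reads by transcript length and then by the library's total, so levels can be compared between genes. TPM keeps no read total, and the depth of each library and its counting error are therefore unknown. Columns summed to between 993935.5 and 996951.6 TPM. OGT stood at 23.11, 22.57 and 23.62 TPM in the control libraries and at 352.74, 352.92 and 270.87 TPM in the overexpressing ones. Of 10 markers listed for 786-O as a renal carcinoma line, 9 reached 1 TPM in at least 3 libraries. The summed level of the 10 was 3802 to 4069 TPM in control and 4778 to 4790 TPM in overexpressing libraries. VIM, KRT8 and KRT18 made up most of that sum. In mean TPM, VIM was higher with OGT overexpression (1872 and 2773), while KRT8 (1289 and 1208) and KRT18 (592.6 and 464.2) were lower. Of 5 fibroblast, 5 blood cell and 3 endothelial markers, 0 reached 1 TPM in at least 3 libraries. Among them, 1 blood cell and 1 endothelial marker were at 0 in every library. Their summed levels were at most 2.44, 12.4 and 4.77 TPM in control and 2.39, 0.55 and 2.68 TPM in overexpressing libraries. Changes are differences of mean log2(TPM + 1), overexpressing less control, a scale that shrinks the changes of genes with low levels, with the standard error (SE) and the p-value of limma adjusted by Benjamini-Hochberg over 12645 tested genes (threshold 0.05). A gene was tested where 3 or more libraries reached 1 TPM. Nothing in the labels says that the replicates were separate cultures, so the p-values measure only how these samples vary among themselves, and that variation may be technical. In bulk RNA, more transcript per cell and more cells with the transcript cannot be told apart.

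Of the 10 genes, 3 rose (PRDX1, PRDX3 and CAT), 6 fell (PRDX2, PRDX4, PRDX5, SOD1, SOD2 and GPX1) and PRDX6 was not called. Among all tested genes 39.1% were called higher and 9.7% lower, and 48.8% in either direction. The median log2 change of the 10 genes was -0.19, and that of all tested genes was 0.30. Most of these enzymes have abundant transcripts: 7 of them were among the 500 tested genes with the highest mean TPM, a set in which 35% were called higher and 38.2% lower (73.2% in either direction) and the median log2 change was -0.0092. The groups did not overlap for 9 of the 10 genes, against 58.6% of tested genes.

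**Figure D1:**
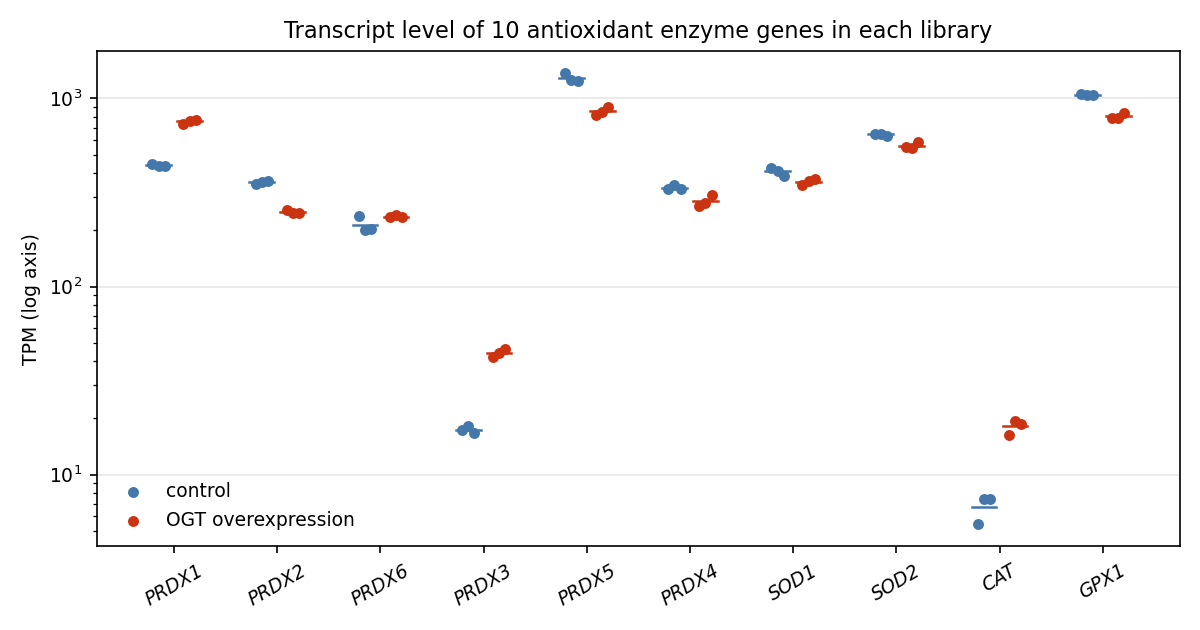
TPM of each gene (log axis) in the 3 control libraries (blue points) and the 3 OGT-overexpressing libraries (red points), with a bar at each group mean. PRDX1, PRDX3 and CAT lie higher with OGT overexpression, the points of PRDX6 overlap, and the other 6 genes lie lower.

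Among the cytosolic peroxiredoxins, PRDX1 and PRDX2 moved in opposite directions. PRDX1, an abundant 2-Cys peroxidase that is also known as a chaperone and a carrier of redox signals (ENSG00000117450, chromosome 1, 45511036 to 45523047, minus strand in the GENCODE release 29 annotation of GRCh38), was at 450.52, 435.32 and 435.88 TPM in control and at 735.73, 760.87 and 772.36 TPM in overexpressing libraries. Every overexpressing library was thus far above every control. The mean went from 441 ± 8.62 to 756 ± 18.7 TPM (SD, n = 3 libraries), a 1.72-fold rise (log2 change 0.78, SE 0.0355, limma adjusted p = 3.67e-05). PRDX2, its closest relative and the main peroxiredoxin of red blood cells (ENSG00000167815, chromosome 19, 12796820 to 12801859, minus strand), was at 351.63, 358.97 and 362.53 TPM in control and at 256.57, 246.07 and 246.05 TPM in overexpressing libraries. Here all 3 overexpressing libraries lay below all 3 controls, with a tight spread in each group. The means were 358 ± 5.56 and 249.6 ± 6.07 TPM (log2 change -0.52, SE 0.0373, limma adjusted p = 1.30e-04). In the annotation PRDX1 shares 379 exon bases with MMACHC on the opposite strand, whose levels of 2.46 to 6.18 TPM over the 6 libraries were far below those of PRDX1. PRDX2 shares 296 exon bases with an antisense gene, and the strand of the libraries is not given in the sources used here.

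PRDX6, the 1-Cys member that also has phospholipase activity and reduces phospholipid hydroperoxides (ENSG00000117592, chromosome 1, 173477266 to 173488807, plus strand), was at 236.17, 200.43 and 201.11 TPM in control and at 234.67, 238.91 and 233.37 TPM in overexpressing libraries. Control replicate 1 reached the level of the overexpressing libraries, and the other controls lay below them. The log2 change was 0.15 (SE 0.0687, limma adjusted p = 0.108). Its sign depended on the scaling. With library medians set equal the change was -0.24 (adjusted p = 0.0222, limma). With the dependence of levels on GC content and transcript length removed from every library it was -0.20 (adjusted p = 0.0439, limma). That removal also recentred each library. In the deposited scaling without control replicate 1, the change of PRDX6 was 0.23 and called higher (adjusted p = 0.00642, limma).

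The mitochondrial PRDX3 and the more widely placed PRDX5 also went opposite ways. PRDX3, the 2-Cys peroxidase of the mitochondrial matrix (ENSG00000165672, chromosome 10, 119167703 to 119178833, minus strand), was at 17.26, 18.13 and 16.56 TPM in control and at 42.01, 44.12 and 46.40 TPM in overexpressing libraries. No library of one group came near the other group. The rise was 2.55-fold in mean TPM, from 17.3 ± 0.787 to 44.2 ± 2.196 (log2 change 1.30, SE 0.0767, limma adjusted p = 6.74e-05), and it exceeded the change of 96% of tested genes. PRDX5, an atypical 2-Cys peroxidase (ENSG00000126432, chromosome 11, 64318088 to 64321811, plus strand), had the highest level of the 10 genes in every library. It stood at 1360.59, 1260.86 and 1241.02 TPM in control and at 818.71, 845.26 and 904.76 TPM in overexpressing libraries. The lowest control was well above the highest overexpressing library. Its mean fell from 1287 ± 64.1 to 856 ± 44.1 TPM (log2 change -0.59, SE 0.0522, limma adjusted p = 2.48e-04).

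PRDX4, the peroxiredoxin of the endoplasmic reticulum that couples peroxide removal to disulfide formation (ENSG00000123131, chromosome X, 23664262 to 23686399, plus strand), showed a smaller difference. It was at 328.77, 346.56 and 331.06 TPM in control and at 269.52, 279.77 and 306.51 TPM in overexpressing libraries. Overexpressing replicate 3 was the closest to the controls, and the groups did not overlap. The mean fell from 335.5 ± 9.68 to 285 ± 19.1 TPM (log2 change -0.23, SE 0.0557, limma adjusted p = 0.0122).

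The balance of the peroxiredoxin family changed, and its total was lower as deposited. Summed over PRDX1 to PRDX6, levels were 2745, 2620 and 2588 TPM in control and 2357, 2415 and 2509 TPM in overexpressing libraries, and the highest overexpressing sum lay just below the lowest control. PRDX1 made up 16.4% to 16.8% of that sum in control and 30.8% to 31.5% in overexpressing libraries. PRDX5 made up 48.0% to 49.6% and 34.7% to 36.1%. PRDX2 went from 13.5% ± 0.623 to 10.3% ± 0.545 of the sum (SD, n = 3), and PRDX3 from 0.654% ± 0.0337 to 1.82% ± 0.0342. These shares are taken within a library and do not depend on how libraries were scaled to each other. The sum does depend on that scaling, so the size of its change was not compared with the changes in shares. The shares were not corrected for GC content and transcript length. With that correction the log2 changes of PRDX1, PRDX2, PRDX3 and PRDX5 were 0.78, -0.28, 0.88 and -0.30. As deposited they were 0.78, -0.52, 1.30 and -0.59.

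**Figure D2:**
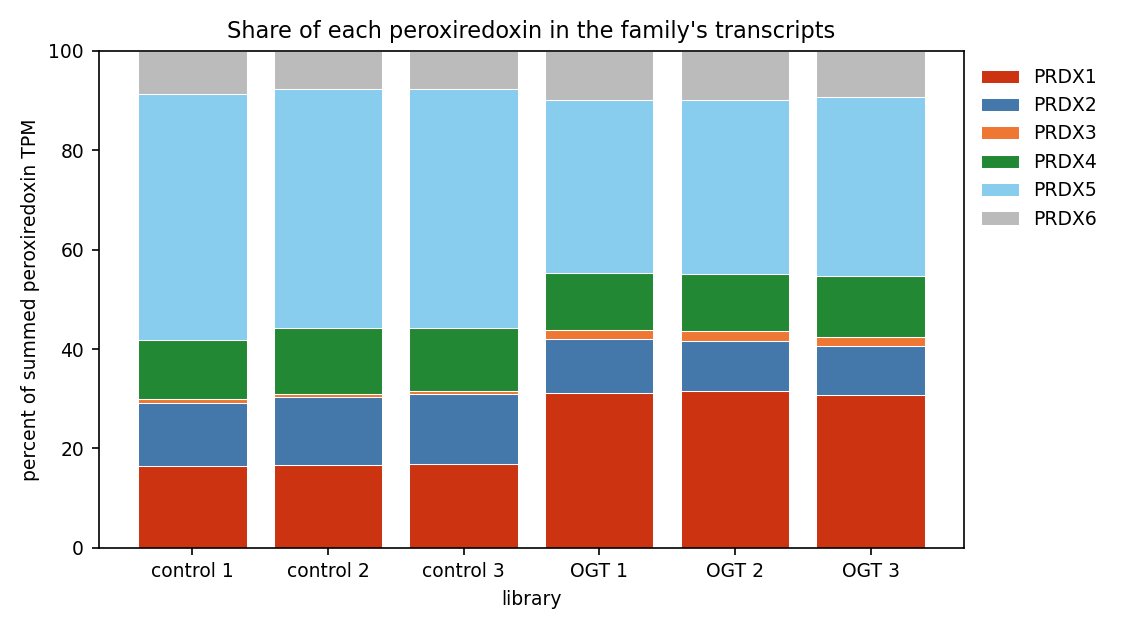
Share of each peroxiredoxin in the summed TPM of PRDX1 to PRDX6 (percent, stacked to 100) in each of the 6 libraries. PRDX1 (red, bottom) takes 16.4% to 16.8% in the controls and 30.8% to 31.5% with OGT overexpression, and PRDX5 (light blue) goes from 48.0% to 49.6% down to 34.7% to 36.1%.

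Both superoxide dismutases fell, by similar amounts. SOD1 (ENSG00000142168, chromosome 21, 31659622 to 31668931, plus strand) was at 427.87, 412.83 and 387.39 TPM in control and at 347.03, 362.43 and 372.39 TPM in overexpressing libraries. The groups did not overlap, but overexpressing replicate 3 lay close below control replicate 3. Its log2 change was -0.18 (SE 0.0498, limma adjusted p = 0.0212), and the call was lost without control replicate 1 or 2 or overexpressing replicate 1 or 2 (adjusted p from 0.0544 to 0.0731, limma). SOD2, which the table lists under ENSG00000291237, was at 649.43, 650.26 and 634.75 TPM in control and at 549.90, 546.09 and 585.26 TPM in overexpressing libraries. All overexpressing libraries were below all controls. The log2 change was -0.20 (SE 0.0388, limma adjusted p = 0.0051). That identifier is in no GENCODE release 29 entry, where a pair of overlapping genes carry the symbol, so no position or transcript property is given for SOD2. The SOD2 to SOD1 ratio was 1.52, 1.58 and 1.64 in control and 1.59, 1.51 and 1.57 in overexpressing libraries, with overlapping groups (log2 difference -0.021, exact two-sided permutation p = 0.6). It was 0.0072 without control replicate 3 and 0.0016 without overexpressing replicate 2.

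Catalase and GPX1, which both act on hydrogen peroxide, were the members with the lowest and the second highest control level and changed in opposite directions. CAT (ENSG00000121691, chromosome 11, 34438925 to 34472062, plus strand, 13 exons in its reference transcript) was at 5.47, 7.44 and 7.39 TPM in control and at 16.33, 19.24 and 18.56 TPM in overexpressing libraries. The lowest overexpressing library was well above the highest control. In mean TPM the rise was 2.67-fold, from 6.77 ± 1.12 to 18.04 ± 1.52 (log2 change 1.30, SE 0.144, limma adjusted p = 5.40e-04). GPX1 (ENSG00000233276, chromosome 3, 49357171 to 49358600, minus strand, 2 exons) was at 1061.17, 1038.80 and 1039.25 TPM in control and at 786.49, 787.07 and 839.12 TPM in overexpressing libraries. The groups were clearly apart, and overexpressing replicate 3 was the highest of its group. Its mean fell from 1046 ± 12.8 to 804 ± 30.2 TPM (log2 change -0.38, SE 0.037, limma adjusted p = 3.39e-04).

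Copies of these genes carried few reads apart from 1 pseudogene. The table holds 16 pseudogene rows named after the members, 12 of them at 0 in every library, and those other than GPX1P1 reached 0.88 TPM at most. GPX1P1 was listed at 61.75, 86.32 and 86.02 TPM in control and at 58.21, 58.80 and 76.32 TPM in overexpressing libraries, with overlapping groups (log2 change -0.27, limma adjusted p = 0.213). Adding GPX1P1 to GPX1 gave a log2 change of -0.37 (adjusted p = 4.73e-04, limma). An antisense row, PRDX6-AS1, was at 2.22 to 2.48 TPM in control and 1.02 to 1.52 TPM in overexpressing libraries.

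Ratios of members within a library show the opposite changes free of library scaling. With 3 libraries against 3, the smallest p of an exact two-sided permutation test is 0.1, so none of the 7 ratios could pass 0.05, and that p was reached by the 6 other than SOD2 to SOD1 (0.117 adjusted over the 7 ratios). The PRDX1 to PRDX2 ratio was 1.28, 1.21 and 1.202 in control and 2.87, 3.09 and 3.14 in overexpressing libraries, a log2 difference of 1.30. PRDX3 to PRDX5 had the largest difference, 1.94, from a mean ratio of 0.0135 to 0.0516. CAT to GPX1 went from a mean ratio of 0.00648 to 0.0224, a log2 difference of 1.81. Against PRDX1, PRDX3 was higher by 0.57, PRDX6 lower (-0.63) and PRDX4 lower (-1.02), all on the log2 scale, and the groups did not overlap for these ratios. After the correction for GC content and transcript length the differences were 1.06 for PRDX1 to PRDX2, 1.18 for PRDX3 to PRDX5, 0.98 for CAT to GPX1, 0.097 for PRDX3 to PRDX1, -0.98 for PRDX6 to PRDX1 and -0.95 for PRDX4 to PRDX1.

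Across all genes the changes followed the composition of the transcript, and the members' values are given beside it. Over 12355 tested genes with a reference transcript, the change had a Spearman correlation across genes of -0.47 with GC content and 0.39 with transcript length, and genes are not independent replicates. The median log2 change was 0.695 among genes with 45% GC or less and -0.000125 among those with over 60%. The members that rose have reference transcripts of 40.7% (PRDX3), 45.2% (CAT) and 51.4% GC (PRDX1), and those that fell run from 45.7% (SOD1) to 64.2% (GPX1). Members of near-equal GC content differed in their changes. CAT, PRDX6 and SOD1 have 45.2%, 45.2% and 45.7% GC and log2 changes of 1.30, 0.15 and -0.18, and their transcripts are 2302, 1751 and 966 bases long, in the same order as the changes. PRDX1 and PRDX4 have 51.4% and 51.7% GC, transcripts of 1234 and 1005 bases, and log2 changes of 0.78 and -0.23. The correction of every library for GC content and length also recentred the libraries. The median log2 change over genes with a reference transcript was 0.0274 after it, and 0.30 over all tested genes as deposited. After that correction 3 of the 9 members with a reference transcript were higher and 6 lower, against 16% and 12.8% of all genes (28.8% in either direction). The corrected changes were 0.88 for PRDX3, 0.85 for CAT and 0.78 for PRDX1 (limma adjusted p = 4.17e-04, 0.00649 and 5.82e-05). They were -0.36 for SOD1, -0.30 for PRDX5, -0.28 for PRDX2, -0.20 for PRDX6, -0.17 for PRDX4 and -0.13 for GPX1 (limma adjusted p from 0.00108 to 0.0485). So the rises of PRDX3 and CAT and the falls of PRDX2, PRDX4, PRDX5 and GPX1 were smaller after the correction, that of PRDX1 was as large, and the fall of SOD1 was larger. What part composition has in the uncorrected values of single genes was not tested. The recentring was not separated from the removal of the trend.

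**Figure D3:**
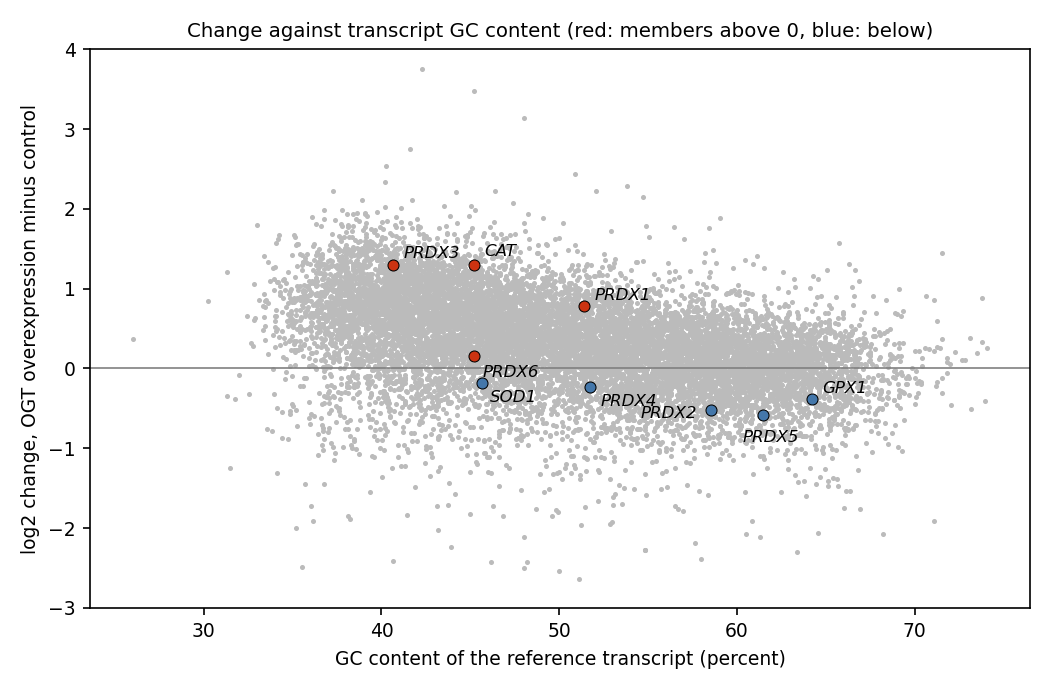
Log2 change of each tested gene against the GC content of its reference transcript (percent). Grey points are other genes, red points are members above 0 and blue points members below 0, and 4 genes fall outside the plotted range. CAT, PRDX6 and SOD1 lie one above another near 45% GC, and GPX1, PRDX5 and PRDX2 sit at the GC-rich end below 0.

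Other scalings moved the members by different amounts. Centring each library on its median took the median over all tested genes from 0.30 to -0.0855, and under it PRDX1, PRDX3 and CAT remained higher (0.39, 0.91 and 0.91) and the other 7 were lower, from -0.24 (PRDX6) to -0.98 (PRDX5), against 15.3% higher and 24.2% lower among all genes (39.6% in either direction). SOD1 and SOD2 were at -0.57 and -0.59, PRDX4 at -0.62, GPX1 at -0.77 and PRDX2 at -0.91 under that centring. Quantile normalization, with a median of 0.019 over all genes, called the same number of members in each direction as the deposited scaling, 3 higher and 6 lower, against 20.2% and 17.8% of all genes (38% in either direction). It gave 1.035 for PRDX3 and 0.94 for CAT, less than as deposited, and 0.75 for PRDX1 and -0.60 for PRDX5, close to the deposited values.

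**Figure D4:**
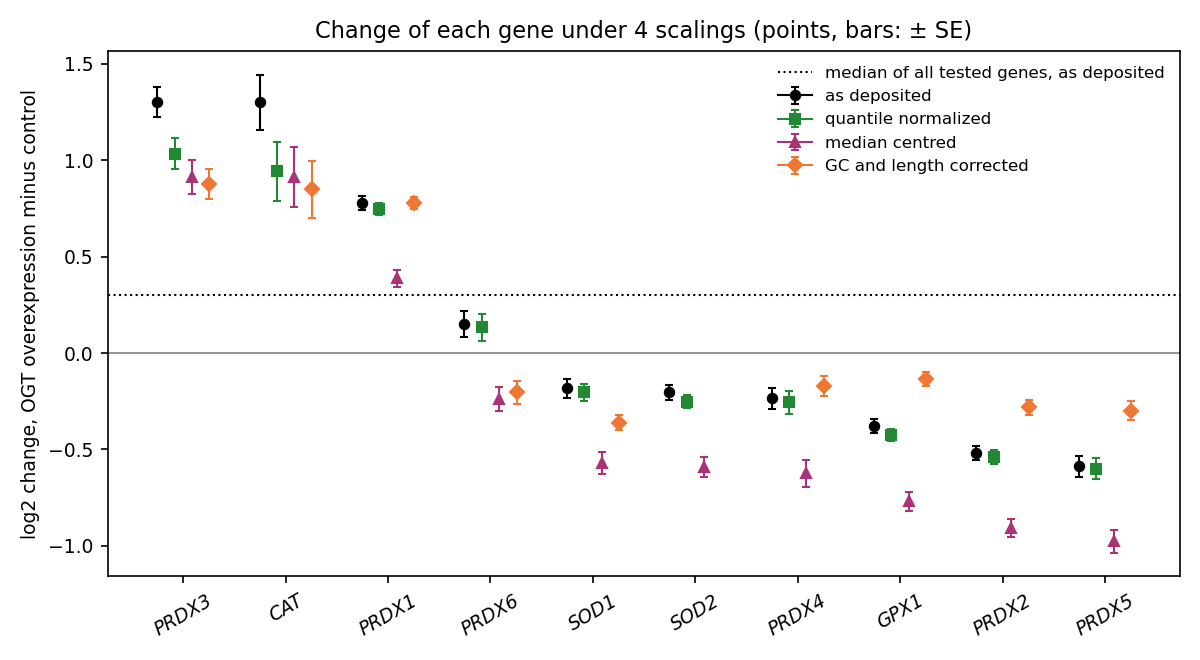
Log2 change of each gene with its standard error (bars) as deposited, after quantile normalization, after median centring and after the GC and length correction, with SOD2 lacking the last. The dotted line is the median of all tested genes as deposited (0.30). PRDX3, CAT and PRDX1 stay above 0 and PRDX6 changes sign.

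Peroxiredoxins depend on thioredoxin, thioredoxin reductase and, after over-oxidation, sulfiredoxin. Of 23 genes of that system listed with protein disulfide isomerases and methionine sulfoxide reductases, 21 were tested, 11 rose and 3 fell, against 39.1% and 9.7% of all tested genes, with a median log2 change of 0.48 against 0.30 (10 higher and 5 lower after the correction, 8 and 5 after median centring, 10 and 5 after quantile normalization). Among all genes 16% were called higher and 12.8% lower after the correction. After median centring the shares were 15.3% and 24.2%, and after quantile normalization 20.2% and 17.8%. The same shares apply to the counts of the lists below. The corrected median of this list was 0.061, against 0.0274 for all genes. TXN, the cytosolic thioredoxin, rose from 181 ± 12.7 to 287 ± 22.7 TPM (log2 change 0.67, corrected 0.42). SRXN1, the sulfiredoxin that repairs over-oxidised peroxiredoxins, rose from 37.2 ± 2.58 to 55.2 ± 1.91 TPM (0.56, corrected 0.38), and it was not called after median centring (0.17, adjusted p = 0.0784 in limma). TXNRD1, the cytosolic reductase of thioredoxin, rose from 49.8 ± 4.205 to 128 ± 4.59 TPM (1.35, corrected 0.70 with limma adjusted p = 4.05e-04). TXN2, the mitochondrial thioredoxin, fell from 128 ± 5.26 to 88.5 ± 2.86 TPM (-0.53, corrected -0.49), and TXNRD2, its reductase, fell from 84.4 ± 4.305 to 63.6 ± 4.45 TPM (-0.40, corrected -0.49). The disulfide isomerase genes PDIA3, PDIA6 and P4HB rose (log2 changes 1.00, 0.698 and 0.62, corrected 0.35, 0.21 and 0.56), in cells in which PRDX4 of the same compartment fell.

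Glutathione peroxidase 1 has relatives and suppliers that moved unevenly. Of 13 tested genes among 17 other glutathione peroxidases, glutathione transferases, glutaredoxins and glutathione reductase, 4 rose and 3 fell, against 39.1% and 9.7% of all tested genes, with a median of 0.080 against 0.30 (2 higher and 3 lower after the correction, 2 and 7 after median centring, 3 and 5 after quantile normalization). The corrected median of this list was -0.116, against 0.0274 for all genes. The mean of GPX8, the peroxidase of the endoplasmic reticulum, went from 2.12 ± 0.663 up to 10.2 ± 2.29 TPM, a rise of 1.85 on the log2 scale (corrected 1.18). GPX4, which reduces lipid hydroperoxides, fell (log2 change -0.67, corrected -0.385). GSR, the glutathione reductase, rose from 22.0 ± 1.58 to 36.0 ± 2.77 TPM (0.69, corrected 0.25 with adjusted p = 0.0664 in limma), and MGST1, a membrane-bound glutathione transferase, rose from 168 ± 14.4 to 255 ± 10.5 TPM (0.60, corrected 0.35) but was not called after median centring (0.21, adjusted p = 0.0577 in limma). GPX2 and GPX7 were listed at 0 in every library. Of 20 genes for selenocysteine insertion or for selenoproteins other than glutathione peroxidases, 18 were tested, 6 rose and 4 fell, against 39.1% and 9.7% of all tested genes (3 and 4 after the correction, 1 and 4 after median centring, 2 and 4 after quantile normalization). The selenoprotein gene SELENON rose from 25.2 to 61.6 TPM (1.25, corrected 1.07). The selenoprotein genes SELENOW and SELENOH and the insertion cofactor gene TRNAU1AP fell (-0.65, -0.55 and -0.76, corrected -0.39, -0.45 and -1.04).

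Copper loading of SOD1 depends on the chaperone CCS, which fell from 65.1 ± 5.87 to 41.6 ± 1.89 TPM (log2 change -0.63, corrected -0.44). The extracellular dismutase gene SOD3 was 18.5 ± 2.27 and 17.4 ± 2.32 TPM and was not called (-0.082, limma adjusted p = 0.644). In this list of 8 copper and dismutase genes, 7 were tested, 1 rose and 2 fell, against 39.1% and 9.7% of all tested genes (0 and 2 after the correction, 0 and 3 after median centring, 1 and 2 after quantile normalization). The copper chaperone gene ATOX1 fell (-0.38), and its corrected change was -1.04 with the longest coding transcript but -0.064 and not called with the principal transcript (adjusted p = 0.502 in limma). The copper importer gene SLC31A1 rose (0.68) but lost its call with the correction (-0.016, adjusted p = 0.919) and with median centring (0.29, adjusted p = 0.0528), both in limma. For catalase, which is imported into peroxisomes by PEX5, 15 of 16 peroxisome assembly genes were tested, 1 rose and 1 fell, against 39.1% and 9.7% of all tested genes (0 and 1 after the correction, 0 and 4 after median centring and after quantile normalization). PEX3 had a log2 change of 0.89 (corrected 0.44, adjusted p = 0.151, and centred 0.50, adjusted p = 0.114) and PEX16 one of -0.46 (corrected -0.33, adjusted p = 0.132), both p from limma, while PEX5 was 24.9 ± 1.297 and 27.9 ± 2.15 TPM (0.16, adjusted p = 0.181).

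Of 32 genes for sources of superoxide and hydrogen peroxide, 14 were tested, 7 rose and 2 fell, against 39.1% and 9.7% of all tested genes, with a median of 0.41 against 0.30 (4 and 2 after the correction, 4 and 5 after median centring, 6 and 4 after quantile normalization). The corrected median of this list was 0.071, against 0.0274 for all genes. The catalytic NADPH oxidase genes NOX1, CYBB, NOX3 and NOX4 were listed at 0 in every library. CYBA, their membrane subunit, was the most abundant of the list and fell from 2559 ± 33.5 to 1548 ± 40.9 TPM (-0.72, corrected -0.55). The sulfhydryl oxidase gene QSOX1 rose (0.64, corrected 0.33), and the aldehyde oxidase gene AOX1 rose (0.86) without a call after the correction (0.22, adjusted p = 0.105 in limma). Among 17 tested of 20 regulators of antioxidant genes, 7 rose and 1 fell, against 39.1% and 9.7% of all tested genes (3 and 4 after the correction, 3 and 6 after median centring, 4 and 3 after quantile normalization). NFE2L2, which encodes the transcription factor NRF2, rose from 3.69 ± 0.19 to 8.58 ± 0.403 TPM (1.03, corrected 0.52 with limma adjusted p = 0.0247). RELA, an NF-κB subunit known to act on SOD2, rose (0.602, corrected 0.45), and NFE2L1 rose (0.41) without a call after the correction (0.12, adjusted p = 0.1205) or median centring (0.021, adjusted p = 0.8175), both in limma. SP1 rose (1.12), and its corrected change was 0.42 and not called with the longest coding transcript (adjusted p = 0.0745) but 0.88 and called with the principal transcript (adjusted p = 0.00421, limma). KEAP1, the inhibitor of NRF2, was the gene that fell (-0.17, corrected -0.25).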

How the data were processed

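RNA sequencing libraries of 6 samples were made with a TruSeq RNA kit from total RNA, per the labels' protocols. The authors deposited 1 table of TPM per gene, and the unit was judged from the column sums. The sources used here do not give the software or gene models behind it. GRCm38 and mm10, which are mouse builds, stand in the submitters' processing notes, while the identifiers are human.

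Genes reaching 1 TPM in 3 or more samples entered a fit of log2(TPM + 1) by limma (version 3.58.1, under R 4.3.3, eBayes with trend and robust, two-sided), adjusted by Benjamini-Hochberg over all tested genes, and the fit was tested on simulated data. GC content and length came from GENCODE release 29 (longest coding transcript, 97.7% of tested genes), and each library's trend was removed with natural splines of 4 degrees of freedom. The spline fit had an intercept, so it also recentred each library. Named genes were the 10 members, OGT, GPX4 and up to 4 genes of each of 7 related lists ranked by adjusted p among those called, of which 1 is not reported here. TXN, TXN2, TXNRD2, SRXN1, SOD3, PEX5, KEAP1, the overlapping genes and those listed at 0 were named once their values were known. The members, lists and tests were chosen with earlier results of these data known. Identities came from global alignments with Biopython 1.88, and promoter motifs were matched letter by letter. The labels do not say that replicate numbers pair the samples, and the main fit used no pairing. Correlations of deviations between samples of the same number were -0.0194, 0.00264 and 0.0166, which does not settle whether they were paired. Alternatives were a pseudocount of 0.1, no filter, a mean of at least 5 TPM, quantile normalization, median centring, the correction, a replicate block, and leaving out each library. The principal transcript and the addition of GPX1P1 to GPX1 were alternatives chosen after seeing the data.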

Additional observations from a re-analysis of the deposited data

How the results depend on the processing

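Of 307 values recomputed for the 20 results other than ratios, 274 kept their direction and side of the threshold or, for counts, stayed within 1.5 times. These totals include the addition of GPX1P1 to GPX1, which altered the values of GPX1 only, so other results were nearly fixed there. They also include the overexpressed gene OGT with each library left out. The totals are therefore a description and no measure of robustness. The 7 ratios could not pass the threshold in any setting. PRDX6 reversed to -0.24 after median centring, -0.20 with the GC and length correction, also with a replicate block (adjusted p = 0.0637), and -0.25 with principal transcripts, an alternative chosen after seeing the data, and ranged from 0.11 to 0.23 with each library left out. SOD1 lost its call with a replicate block (-0.18, adjusted p = 0.0596) and ranged from -0.22 to -0.15 with each library left out. With the block and the correction PRDX4 (-0.17, adjusted p = 0.0722) and GPX1 (-0.13, adjusted p = 0.0873) lost theirs. In that setting 3 members were called higher and 3 lower, against 1525 and 1314 of 12355 tested genes. SOD2 has no corrected value, so it could not be counted there. All p are from limma. The block changed no other member's call. The SOD2 to SOD1 log2 ratio ranged from -0.048 to 0.0072, with sign changes without control replicate 3 (0.0072) and overexpressing replicate 2 (0.0016).

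Counts of called genes in the lists moved as follows. Peroxisome genes (2 as deposited) numbered 1 with no filter, with a mean of at least 5 TPM and with the correction under either transcript choice, 4 after quantile normalization or median centring, and 1 to 3 with a library left out. Regulators (8) numbered 5 with no filter and with the block, 4 with block and correction, and 4 to 8 with a library left out. Selenoprotein genes (10) numbered 6 after quantile normalization and 5 after median centring. Sources (9) numbered 5, and glutathione genes (7) 4, with block and correction, and copper genes (3) numbered 1 with principal transcripts. With each library left out, the results not named here stayed on the same side. The cause of these moves was not tested. Depth is unknown for TPM.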

Other observations

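Some genes tied to peroxide handling were high in 1 or 2 libraries, and were chosen after their values were seen. DUOX1, which encodes a hydrogen peroxide generating oxidase, was listed at 0.2, 11.77 and 0.19 TPM in control replicates 1, 2 and 3 and at 0.14, 8.16 and 0 TPM in overexpressing replicates 1, 2 and 3, and was not tested. HOOK2, whose gene overlaps PRDX2 on the same strand without shared exon bases, was at 19.23, 17.93 and 43.80 TPM in control and at 15.68, 13.35 and 15.36 TPM in overexpressing libraries (log2 change -0.71, limma adjusted p = 0.112). PRDX2 showed no such rise in control replicate 3 (362.53 TPM, against 351.63 and 358.97 TPM). The methionine sulfoxide reductase gene MSRB3 was at 33.72, 15.27 and 12.47 TPM in control and at 10.31, 16.48 and 24.18 TPM in overexpressing libraries. PEX13 was at 11.72 TPM in control replicate 1 and from 1.86 to 4.47 TPM in the other 5 libraries, and PEX19 was at 47.34 TPM in control replicate 3 and from 17.84 to 33.09 TPM elsewhere.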
